A study of Homo sapiens with 9 samples.

Results

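Trimethylation of lysine 4 on histone H3 (H3K4me3) was compared between METTL3-knockout (METTL3-KO) and control HEL cells, in 5 of the 9 CUT&RUN libraries of the series. HEL is an established human erythroleukemia line that carries both erythroid and megakaryocytic features. The 2 METTL3-KO libraries came from cells edited by CRISPR at METTL3, and the 3 control libraries from cells given a non-targeting CRISPR guide (NTC). All cells were grown in the same medium, and no further treatment is named in the labels. The labels name no clone and do not say that replicates were separate cultures, so the p-values below measure the spread between these libraries, which may be technical. Each library was deposited as a list of called peaks with 1 signal value per peak, a coverage sum that the authors calibrated to spiked-in yeast DNA. Peaks of the 5 lists that shared at least 1 bp were merged, which gave 30096 regions (30404 when all 9 lists were merged). A gene was called marked in a library when a peak lay within 1 kb of one of its annotated starts, and 12393 of 20149 protein-coding genes were marked in at least 1 of the 5 libraries.

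METTL3 is the catalytic subunit of the complex that writes N6-methyladenosine (m6A) on RNA, and METTL14 and WTAP are its partners. H3K4me3 sits on nucleosomes around the starts of active genes, is laid down by the SETD1 and KMT2 (MLL) complexes, and is removed by KDM5 enzymes. In CUT&RUN an antibody tethers a nuclease to the mark, so that only DNA fragments next to it are released and sequenced.

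Far fewer peaks were listed after METTL3 knockout, and those that were listed were narrower and lower. The NTC libraries held 21831, 21941 and 21724 peaks (21832 ± 109, SD, n = 3) and the METTL3-KO libraries 9369 and 9205 (9287 ± 116, SD, n = 2), so the knockout mean was 42.5% of the control mean. The groups did not overlap. The exact permutation test over libraries gave p = 0.2 (two-sided), which is the smallest value that 3 against 2 libraries allow. Median peak width was 658, 659 and 670 bp in NTC and 454 and 424 bp in METTL3-KO. The listed peaks covered 17.0, 17.2 and 17.2 Mb of the genome in NTC and 5.43 and 5.00 Mb in METTL3-KO. Marked protein-coding genes numbered 9651, 9590 and 9437 in NTC (9559 ± 110, SD, n = 3) and 6976 and 6748 in METTL3-KO (6862 ± 161, SD, n = 2), which is 71.8% of the control mean (exact permutation p = 0.2, two-sided, again the smallest possible). Both shares depended on low peaks: when peaks under the median NTC peak signal were dropped, the knockout mean was 26.3% of the control mean for peaks and 36.2% for marked genes. The remaining peaks were concentrated at promoters: 57.6%, 57.0% and 56.1% of NTC peaks lay at a coding promoter, against 82.1% and 79.6% of METTL3-KO peaks.

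Read totals were not given in the files, so sequencing depth is unknown. Within a list nearly every value was a whole multiple of 1 step, the weight that the calibration gave a unit of coverage. The steps were 1.32, 1.30 and 1.14 in NTC and 0.461 and 1.07 in METTL3-KO. The lowest listed signal was nearly the same in every list, at 31.6, 31.3 and 32.0 in NTC and 30.4 and 32.0 in METTL3-KO. In steps it was 24, 24 and 28 in NTC and 66 and 30 in METTL3-KO. A listed peak therefore held clearly more steps in METTL3-KO replicate 1, and in replicate 2 only slightly more than in NTC replicate 3. The part of this in the missing peaks was not tested. The METTL3-KO libraries were also less alike. Over the regions called in all 5 libraries, log2 signal correlated at 0.916 to 0.938 between NTC libraries, at 0.720 between the METTL3-KO libraries, and at 0.474 to 0.678 across groups. These are descriptions over regions of shared libraries. No list holds a peak wider than 2000 bp, and 413, 431 and 463 NTC peaks were wider than 1900 bp, against 50 and 40 in METTL3-KO. A broad domain above that width may therefore be absent from a list without the mark being absent, which was not tested. The erythroid marker genes fixed for the check (8 genes) were marked in 8, 6 and 6 cases in NTC and in 5 and 3 in METTL3-KO, with summed signals of 33255 to 35613 and 1689 to 8146. Of the markers of cells the culture should not hold, those of T cells (5) and hepatocytes (4) were marked in no library, and the neuron marker GRIN1 was marked in NTC alone, at 1073, 896 and 2405. In the longer lists of such genes CD8A (5340, 5558 and 5848), CD247 (3801, 4862 and 5373) and CYP2E1 (4121, 5753 and 4550) were marked in each NTC library but not after knockout. These marks lay at annotated starts other than the canonical one. The regions were 87034426 to 87036063 for CD8A (canonical start 87018036) and 167423806 to 167425586 for CD247 (167487766). They were 135342766 to 135344285 for CYP2E1 (135340867) and 140044299 to 140045090 for GRIN1 (140033606).

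The promoters shown here carry the contrast that the results below describe, namely starts that kept a peak in both knockout libraries, starts that had none, and 1 start listed in the knockout alone. Each is the 120 bases before the canonical start, read 5′ to 3′ on the gene's strand from the hg19 genome, the canonical start being that of the GENCODE annotation. Capitals mark CCGGAA, the core recognised by ETS-family factors, or its reverse complement TTCCGG.
METTL3, kept, chr14:21979483-21979602, minus strand: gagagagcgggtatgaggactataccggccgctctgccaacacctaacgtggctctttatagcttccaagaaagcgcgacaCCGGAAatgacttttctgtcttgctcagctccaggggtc
SLC25A38, kept, chr3:39424741-39424860, plus strand: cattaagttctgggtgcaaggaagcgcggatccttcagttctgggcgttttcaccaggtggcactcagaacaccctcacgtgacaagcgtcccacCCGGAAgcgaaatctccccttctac
RPS12, kept, chr6:133135588-133135707, plus strand: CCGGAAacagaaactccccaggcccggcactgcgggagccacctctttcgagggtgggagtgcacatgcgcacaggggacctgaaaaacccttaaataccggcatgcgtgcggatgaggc
KLF1, lost, chr19:12998016-12998135, minus strand: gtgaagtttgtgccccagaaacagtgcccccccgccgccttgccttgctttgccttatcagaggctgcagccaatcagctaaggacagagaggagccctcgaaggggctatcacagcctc
GYPC, lost, chr2:127413614-127413733, plus strand: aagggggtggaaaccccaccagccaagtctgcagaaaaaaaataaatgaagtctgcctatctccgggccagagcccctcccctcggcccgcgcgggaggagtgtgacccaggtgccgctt
ABCB10, lost, chr1:229694455-229694574, minus strand: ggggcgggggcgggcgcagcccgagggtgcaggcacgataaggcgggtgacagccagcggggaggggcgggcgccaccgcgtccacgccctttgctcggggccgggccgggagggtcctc
RPL3, lost, chr22:39715629-39715748, minus strand: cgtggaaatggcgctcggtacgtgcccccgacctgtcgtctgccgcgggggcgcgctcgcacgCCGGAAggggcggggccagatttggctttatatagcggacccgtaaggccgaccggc
HAUS6, METTL3-KO only, chr9:19102903-19103022, minus strand: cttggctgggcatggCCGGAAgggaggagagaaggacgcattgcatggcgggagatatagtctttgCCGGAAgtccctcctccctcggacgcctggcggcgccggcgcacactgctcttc

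Regions away from coding promoters were most often without a peak in METTL3-KO. Of the regions called in all 3 NTC libraries, 3060 (18.9%) were called in both METTL3-KO libraries, 1580 (9.74%) in 1 of them and 11589 (71.4%) in neither. At coding promoters 26.8% of 9778 such regions were kept and 60.5% were in neither knockout library. Of 2806 regions inside introns 2.46% were kept and 95.9% had no knockout peak, and of 539 exonic regions 4.82% were kept and 91.1% had none. Intergenic regions (1843) were kept in 7.76% of cases and had none in 83.3%. These places were not matched for NTC signal, and the part of signal in these shares was not tested.

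Where a region was called in all 5 libraries its signal was lower in METTL3-KO. The median signal of the 3060 kept regions was 8936, 8991 and 10724 in NTC and 1593 and 895 in METTL3-KO. By limma with Benjamini-Hochberg adjustment on log2(signal), without a pseudocount, 3011 of them (98.4%) were lower and 0 higher. An unadjusted p under 0.05 was reached by 3011, and the median difference was -2.90 on that log2 scale. When each library was centred on these same regions, which sets their typical difference near 0 by construction, 1123 still differed from the rest of the set, 405 lower and 718 higher. Over all 23784 regions called in at least 2 libraries, tested on log2(signal + 30.4), 15954 (67.1%) were lower and 2735 (11.5%) higher. In regions called in all 3 NTC and in neither METTL3-KO library the NTC medians were 1624, 1764 and 2221, well under those of the kept regions.

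The same grading appeared at genes. Of 8492 protein-coding genes marked in all 3 NTC libraries, 3384 (39.8%) kept a promoter peak in both METTL3-KO libraries, 1179 (13.9%) in 1, and 3929 (46.3%) in neither. These classes are called kept, marked in 1, and lost below. METTL3-KO only, or METTL3-KO alone, means a peak in both METTL3-KO libraries and in no NTC library. The METTL14 and WTAP knockout libraries of the series do not enter these classes. Promoter signal is the sum of the peaks within 1 kb of a gene's starts. When the 8492 genes were split into 10 groups of equal size by mean NTC promoter signal (signal groups below), the share kept was 6%, 5.42%, 11.1%, 17.6%, 29.8%, 40.05%, 55.8%, 66.5%, 78.1% and 88.1% from the lowest group to the highest. A weak control promoter was therefore usually without a knockout peak, and a strong one usually with one.

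**Figure D1:**
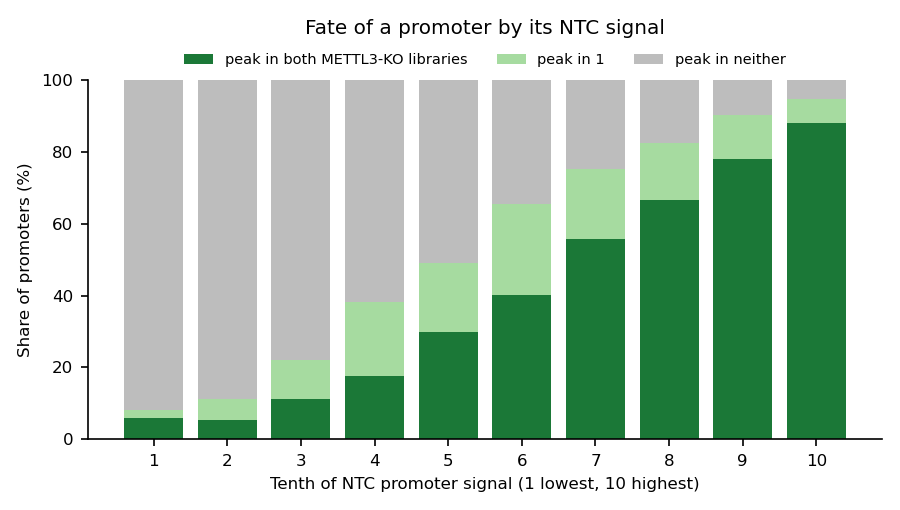
Share (%) of the 8492 promoters marked in all 3 NTC libraries that had a peak in both METTL3-KO libraries, in 1 or in neither, by signal group, lowest to highest, on the x axis. The share with a peak in both rises from 6% in the lowest group to 88.1% in the highest.

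Most kept promoters had a lower signal. Their METTL3-KO signal was 15.3% of the NTC signal at the median (interquartile range 9.22% to 24.9%, n = 3384 genes), 255 stood at 50% or above, and limma called 3000 lower and 40 higher and left 344 uncalled. The few kept promoters of the lowest 2 signal groups went the other way, with medians of 332% (51 genes) and 135% (46 genes) of NTC. Over all 11821 genes tested, 8000 (67.7%) were lower and 1687 (14.3%) higher, with a median log2 difference of -3.67. With the centred values 4374 (37%) were lower and 2619 (22.2%) higher, so that 62.5% of the calls were lower in place of 82.6%. Kept promoter regions also narrowed. The bases covered by peaks had a median of 1390, 1412 and 1427 bp in NTC and 499 and 451 bp in METTL3-KO.

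Peaks drew in towards the start. At kept promoters, coverage by peaks was highest 100 bp before the start in the NTC libraries, at 73.2% to 74.5% of promoters, and highest at the start itself in METTL3-KO, at 50.7% and 46.9%. At 1000 bp past the start, 36.4%, 36.5% and 36.3% of these promoters were under a peak in NTC and 14.2% and 11.8% in METTL3-KO. At lost promoters the NTC maximum was lower, at 47.8%, 51.9% and 54.2%.

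**Figure D2:**
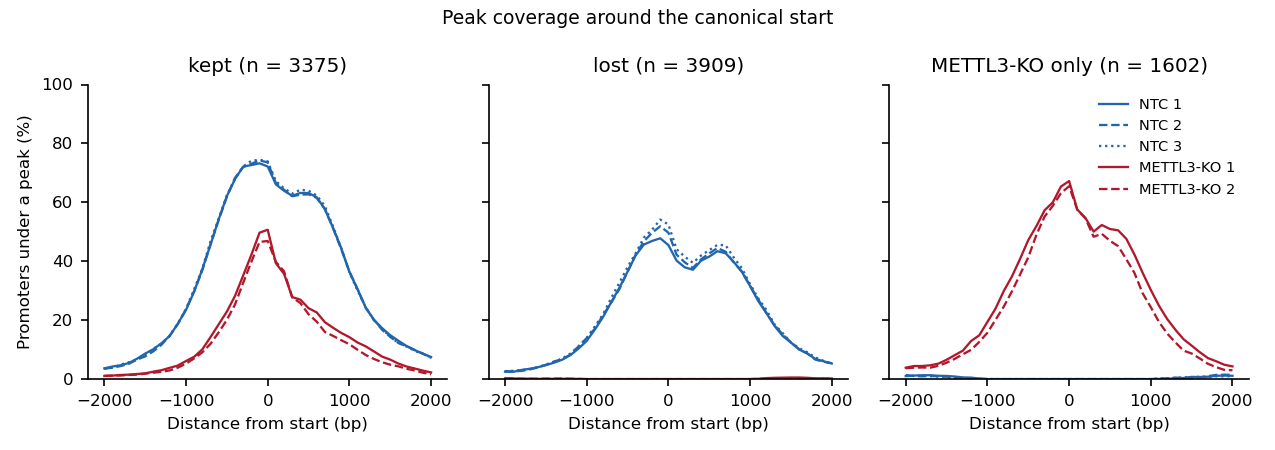
Share (%) of promoters under a called peak against distance (bp) from the canonical start, for kept, lost and METTL3-KO-only genes, with 1 line per library. At kept promoters the NTC lines peak at 73.2% to 74.5% and the METTL3-KO lines at 50.7% and 46.9%, and the knockout lines are narrower.

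The targeted gene itself kept a weakened promoter peak. METTL3 promoter signal was 6578, 9224 and 10067 in NTC and 1095 and 915 in METTL3-KO, a log2 difference of -3.05 ± 0.32 (SE, adjusted p = 0.00117 by limma). The groups did not overlap, but the difference was close to that of the median kept region, and with centred values it was -0.09 (adjusted p = 0.818 by limma) and with values divided by the step -2.23 (adjusted p = 0.0549 by limma). A promoter mark does not check a coding-sequence edit. METTL14, the partner that holds the RNA, stood at 3837, 3338 and 5174 in NTC and 965 and 349 in METTL3-KO (log2 difference -2.73 ± 0.55, SE, adjusted p = 0.00976 by limma), but its call was lost with the replicate block (-2.55, adjusted p = 0.0581 by limma) and with values divided by the step (-1.92, adjusted p = 0.153 by limma), and its direction turned with centred values (0.19). WTAP, which places the complex in nuclear speckles, had 21869, 11067 and no listed peak in NTC and 5749 and 673 in METTL3-KO, and was not called (adjusted p = 0.990 by limma). Of 8 members of the m6A list marked in all NTC libraries, 4 were kept and 4 lost, against 39.8% and 46.3% of all such genes. The reader YTHDC1 fell from 9047, 10207 and 10359 to 609 and 467 (log2 difference -4.13, and -1.20 when centred). The m6A eraser FTO (4313, 4868 and 4793 in NTC) and the reader YTHDC2 (6337, 5261 and 5811 in NTC) had no knockout peak. VIRMA, a scaffold of the writer, CBLL1 and the reader YTHDF2 were marked in both METTL3-KO libraries and in no NTC library, as were 7.96% of all coding genes.

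Erythroid transcription factors were divided. Of 15 marked in all NTC libraries, 10 were kept, 1 was marked in 1 library and 4 were lost (66.7% kept, against 39.8% of all genes and 44.3% of all genes in the same signal groups). KLF1, an activator of globin and heme genes, had signals of 10347, 8488 and 11190 in NTC and no peak in METTL3-KO. GATA1, the central erythroid activator, stood at 2638, 2788 and 2982 in NTC with no knockout peak, and CBFA2T3 and ZFPM1, which act with GATA1 or TAL1 complexes, were lost too. By limma 11 of the 18 tested factors were lower and 2 higher, beside 67.7% and 14.3% of all tested promoters, and with centred values 4 were lower and 4 higher, beside 37% and 22.2%. A fitted log2 difference against a group with no peak depends on the pseudocount and is not given. GATA2, the factor of early progenitors, was kept at 24787, 23743 and 10363 in NTC and 1589 and 1341 in METTL3-KO. LDB1, the bridging factor of the GATA1-TAL1 complex, was kept at 32037, 30525 and 11666 against 4340 and 2470. BCL11A, a repressor of fetal globin, was weakened least of the 4 highest kept members, from 15509, 19074 and 19502 to 11932 and 5455 (log2 difference -1.15 ± 0.38, SE, adjusted p = 0.0462 by limma). That call did not hold under most alternatives, and with centred values the difference was 1.84. HEMGN had no promoter peak in any of the 5 libraries.

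The heme genes split within the pathway. Of 15 marked in all NTC libraries, 5 were kept, 3 were marked in 1 METTL3-KO library and 7 were lost (33.3% kept, against 47.0% of all genes in the same signal groups). SLC25A38, the mitochondrial glycine carrier, was kept at 14635, 16095 and 15784 against 3808 and 2748. PPOX, a late enzyme of the pathway, stood at 14625, 9984 and 15114 against 1528 and 352. UROS, the enzyme that closes the ring, was listed at 1067, 9554 and 7584 in NTC and 2008 and 1292 in METTL3-KO. The groups overlapped at UROS because of NTC replicate 1, and its log2 difference was -1.39 ± 1.13 (SE, adjusted p = 0.315 by limma). Without that library it was -2.38 (adjusted p = 0.0174 by limma), and with centred values it was 1.56. The lost members included ABCB10, a mitochondrial inner membrane transporter (13156, 14108 and 17972 in NTC) and SLC25A37, the mitochondrial iron importer (11979, 16798 and 14099 in NTC), with ALAS1, the housekeeping first enzyme (7495, 6251 and 7096 in NTC), and TSPO, an outer membrane protein (5021, 7315 and 9042 in NTC). None of these had a peak in either knockout library. By limma 13 of the 17 tested heme genes were lower and 1 higher, beside 67.7% and 14.3% of all tested promoters, and with centred values 7 were lower and 3 higher, beside 37% and 22.2%.

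Red cell surface and signalling genes marked in all NTC libraries were mostly lost. Among globin, surface and skeleton genes 2 of 9 were kept, 1 was marked in 1 library and 6 were lost. That is 22.2% kept, against 47.7% of all genes in the same signal groups. A further 3 of the 31 members (9.68%) were marked in both METTL3-KO libraries and in no NTC library, beside 7.96% of all coding genes. By limma 9 of the 16 tested members were lower and 4 higher, beside 67.7% and 14.3% of all tested promoters. GYPC, glycophorin C of the red cell membrane, had 13577, 13344 and 15663 in NTC and no knockout peak. ADD1, an adducin subunit, and SLC2A1, the glucose transporter, were the 2 kept members. Among EPO receptor and JAK-STAT genes 1 of 7 was kept, 1 was marked in 1 library and 5 were lost. That is 14.3% kept, against 37.1% of all genes in the same signal groups. Another 3 of the 16 members were marked in METTL3-KO alone (18.75%, beside 7.96% of all coding genes). Of the 14 tested members limma called 7 lower and 3 higher, beside the same shares of all tested promoters. EPOR, the erythropoietin receptor, had 8281, 7713 and 9594 in NTC and none in METTL3-KO. STAT5B, which carries its signal, was kept at 34591, 34299 and 23070 against 11808 and 2964. ANK1, the ankyrin that anchors the membrane skeleton, went the other way, with no peak in NTC and 12838 and 6953 in METTL3-KO.

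Megakaryocyte and myeloid genes marked in all NTC libraries were not kept, while MHC class II genes were divided. Of 6 megakaryocyte genes marked in all NTC libraries 0 were kept, 2 were marked in 1 METTL3-KO library and 4 were lost, where 60.9% of all genes in the same signal groups were kept. The platelet collagen receptor GP6 stood at 8827, 12009 and 13127 in NTC with no knockout peak, and GP9 and GP1BA, subunits of the von Willebrand factor receptor, were lost in the same way. Markers that were not in every NTC library did have knockout peaks: ITGA2B, the platelet integrin, had 4129, no peak and 5903 in NTC and 2456 and 749 in METTL3-KO, and FLI1, a megakaryocyte transcription factor, had 41598 in NTC replicate 2 alone and 17053 and 11335 in METTL3-KO. Of 5 myeloid genes 0 were kept, 1 was marked in 1 library and 4 were lost, against 20.02% kept in the same signal groups. CEBPA, a myeloid transcription factor, had 2919, 2846 and 3808 in NTC and none in METTL3-KO. MHC class II genes kept 3 of 7, against 55.3% of all genes in the same signal groups, with HLA-DRA at 13738, 17022 and 21004 against 4035 and 2025.

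**Figure D3:**
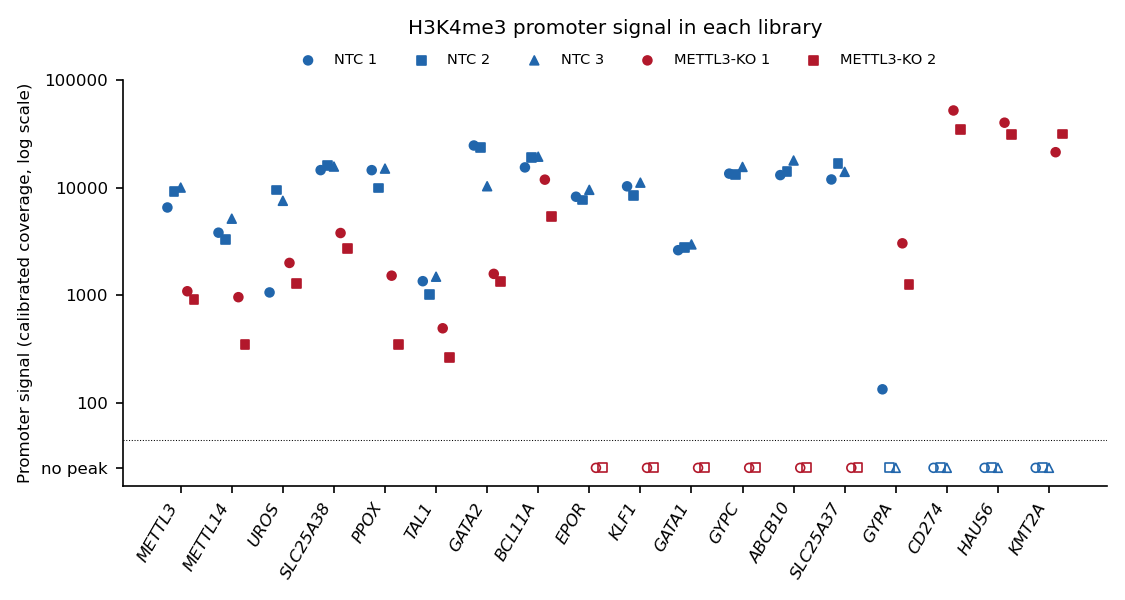
Promoter signal (calibrated coverage, log scale) of 18 named genes, with 1 point per library and open points at the bottom where no peak was listed. KLF1, GATA1, EPOR and GYPC have points in all 3 NTC libraries and none in METTL3-KO, and CD274, HAUS6 and KMT2A have points in METTL3-KO alone.

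Genes for the enzymes of the mark were themselves mixed. Of 16 genes of the H3K4 methyltransferase complexes marked in all NTC libraries, 10 were kept, 1 was marked in 1 library and 5 were lost (62.5% kept, against 36.0% in the same signal groups). NCOA6, a KMT2C and KMT2D complex subunit, fell from 27644, 28103 and 35531 to 4085 and 816 (log2 difference -4.02, and -1.05 when centred). DPY30, a subunit of every such complex, fell from 12620, 10487 and 12716 to 2190 and 1492 (log2 difference -2.70, and 0.27 when centred). SETD1A, a main H3K4me3 writer, stood at 1192, 827 and 903 in NTC and the shared subunit WDR5 at 1814, 1476 and 2238, and neither had a knockout peak. Both were weak in NTC. SETD1A was in the lowest signal group and WDR5 in the next, where 91.8% and 88.7% of all genes were lost. Of 5 demethylase genes 1 was kept and 4 were lost, where 41.3% of all genes in the same signal groups were kept. RCOR1, a partner of the demethylase KDM1A, had 19121, 18224 and 21935 in NTC and none in METTL3-KO. KDM5A, which removes H3K4me3, had no peak in NTC and 6043 and 2562 in METTL3-KO, and KDM5B likewise had 2386 and 994. They were 2 of 9 demethylase genes (22.2%), beside 7.96% of all coding genes marked in METTL3-KO alone. The upper bound of 2000 bp on listed peaks bears on them too, and its part was not tested.

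Housekeeping families ranged from shares kept above that of all genes with like NTC signal to shares near it. Cytosolic ribosomal protein genes kept 38 of 58 (65.5%), with 11 marked in 1 library and 9 lost, where 36.1% of all genes in the same signal groups were kept. Mitochondrial ribosomal protein genes kept 41 of 61 (67.2%, against 53.1%), and respiratory chain and ATP synthase genes 33 of 52 (63.5%, against 42.3%). Translation factors kept 17 of 35 (48.6%, against 42.7%) and DNA replication and cell cycle genes 14 of 33 (42.4%, against 39.2%), both close to the share of their signal groups. These shares are descriptions, and no test of a list was made. Kept did not mean unchanged. RPS12, a protein of the small ribosomal subunit, fell from 18527, 18047 and 24321 to 4771 and 1981 (16.6% of NTC). RPL30, a large-subunit protein, fell from 15737, 13588 and 15799 to 7036 and 5964 (43.2% of NTC). RPL3, another large-subunit protein, stood at 1629, 2122 and 2309 in NTC and had no knockout peak. Over the ribosomal protein list 55 of 75 tested genes were lower and 7 higher by limma, beside 67.7% and 14.3% of all tested promoters, and with centred values 10 were lower and 23 higher, beside 37% and 22.2%. RPL30 itself came to a log2 difference of 1.78 when centred and RPS12 to 0.28. Of 75 mitochondrial ribosomal protein genes 60 were lower and 7 higher, and 11 and 28 with centred values. The centring moves every gene of a library alike, and calls over all tested promoters moved too. There, however, lower calls stayed more frequent than higher ones (37% against 22.2%). In both families the higher calls outnumbered the lower ones after centring. Why the families moved further was not tested. Zinc finger genes of chromosome 19, most of them in clusters of repressor genes, kept 117 of 170 (68.8%, against 50.8% in the same signal groups). Of 631 other genes of that chromosome 44.7% were kept, with a lower median NTC signal (6045 against 8176). ZNF227, the highest of them, fell from 41877, 43984 and 53060 to 17615 and 9421, a log2 difference of -1.84 that came to 1.15 when centred.

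**Figure D4:**
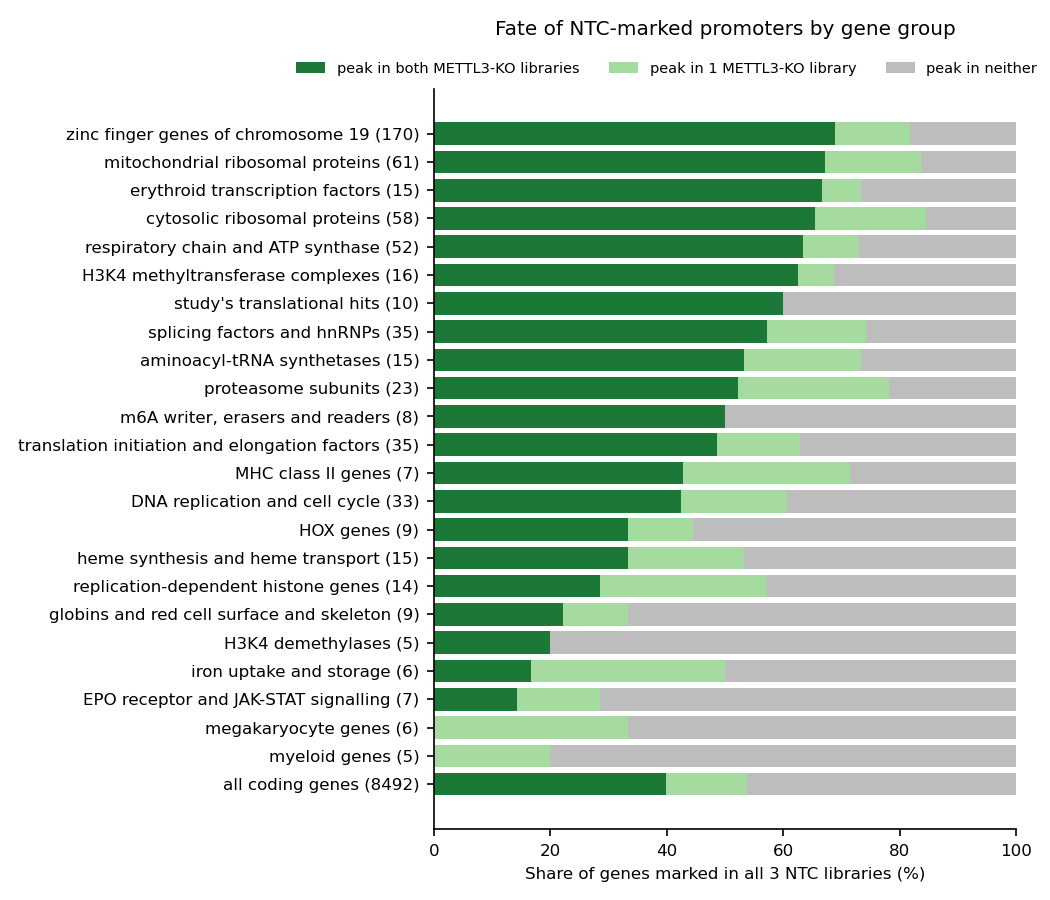
Share (%) of each group's NTC-marked genes (all 3 libraries) that had a peak in both METTL3-KO libraries, in 1 or in neither, for each gene group, with the number of such genes in brackets. Mitochondrial ribosomal protein genes (67.2% kept) stand above the 39.8% of all genes, and megakaryocyte and myeloid genes have 0 kept.

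The strongest control promoters without a knockout peak were COL18A1, a collagen gene (27578, 24752 and 29461 in NTC), SLFN14, a ribosome-associated endonuclease of platelets and red cells (24595, 25407 and 29527), and GSE1 (23826, 22987 and 28612). Among genes marked in all 5 libraries, SMOX, spermine oxidase, fell most by ratio, from 27290, 24179 and 29018 to 125 and 197 (0.600% of NTC). BNIP3L, the receptor that clears mitochondria from maturing red cells, fell from 18438, 20690 and 26650 to 328 and 32.0. Both stayed lower with centred values, at log2 differences of -4.34 for SMOX and -4.57 for BNIP3L. These signals sum peaks at all annotated starts of a gene, so they need not describe the canonical start. A region counted for SMOX lay at 4151535 to 4153287 (canonical start 4129475). For BNIP3L a counted region lay at 26247845 to 26249728 (26240570), and for GSE1 at 85590304 to 85592349 (85646928).

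The other direction was also seen. A promoter peak in both METTL3-KO libraries and in no NTC library was found for 1603 genes, 7.96% of all coding genes. Over regions the number was 2756, of which 82.8% lay at a coding promoter. Their median METTL3-KO signals, 3069 and 1475, were above those of the kept regions in the same libraries. CD274, which encodes PD-L1, had no NTC peak and 52454 and 35145 in METTL3-KO. HAUS6, an augmin subunit of the spindle, had 40385 and 31126, and KMT2A, an H3K4 methyltransferase, 21473 and 31730. These promoters were also marked in the other knockouts of the series. HAUS6 had 29465 and 24786 in METTL14-KO and 21251 and 25403 in WTAP-KO. KMT2A had 24670 and 16386 in METTL14-KO and 15290 and 23991 in WTAP-KO. CD274 had 35839 and 31872 in METTL14-KO, and 26912 and no peak in WTAP-KO. Among genes marked in all 5 libraries, the homeobox gene MEIS2 rose from 707, 806 and 345 to 20690 and 9383 (log2 difference 4.51 ± 0.60, SE, adjusted p = 0.00241 by limma), and ZNF638 rose from 147, 97.9 and 264 to 8632 and 4264. The upper bound of 2000 bp on listed peaks bears on these genes, and its part in them was not tested. ZNF638 was counted over several annotated starts, with a region at 71503737 to 71505170 and its canonical start at 71558912. Of the METTL3-KO-only regions 16.4% lay within 1 kb of an NTC peak, and the median distance to one was 8.31 kb.

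Histone genes were frequent in this class. Of 64 replication-dependent histone genes, 24 were marked in METTL3-KO alone (37.5%, beside 7.96% of all coding genes), while of 14 marked in all NTC libraries 4 were kept (28.6%, against 30.8% in the same signal groups). All 24 were on chromosome 6, where they made up 24 of 51 histone genes, while 4 of 70 other coding genes between 25 and 30 Mb of that chromosome and 0 of 13 histone genes elsewhere were in this class. H2BC5, an H2B gene, had no peak in NTC and 1860 and 939 in METTL3-KO. Histone genes of the cluster lie close together, so that 1 peak can mark several of them. H4C8, an H4 gene, was kept at 20243, 20936 and 26806 against 11957 and 5265.

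Chromosome X stood apart from the autosomes. Peaks on it numbered 683, 692 and 683 in NTC and 33 and 64 in METTL3-KO. Of 288 X-linked genes marked in all NTC libraries 2 were kept (0.694%) and 279 lost, and 0 were marked in METTL3-KO alone, where 41.3% of 8197 autosomal genes were kept. X promoters were weak in NTC, with a median signal of 1619 against 6170 on the autosomes, and the part of this in the low share kept was not tested. When all genes were split into 4 groups by NTC signal, in the lowest group 0 of 217 X genes and 7.26% of autosomal genes were kept, and in the next 2 of 67 and 22.04%. GATA1 is 1 of the X-linked genes. Among autosomes the share kept ran from 20.6% on chromosome 18 to 59.1% on chromosome 15, with 22.1% on chromosome 16 and 58.1% on chromosome 21. Median NTC promoter signal moved with these shares, at 4024 on chromosome 18, 3778 on 16, 9361 on 15 and 10678 on 21, and its part in them was not tested.

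**Figure D5:**
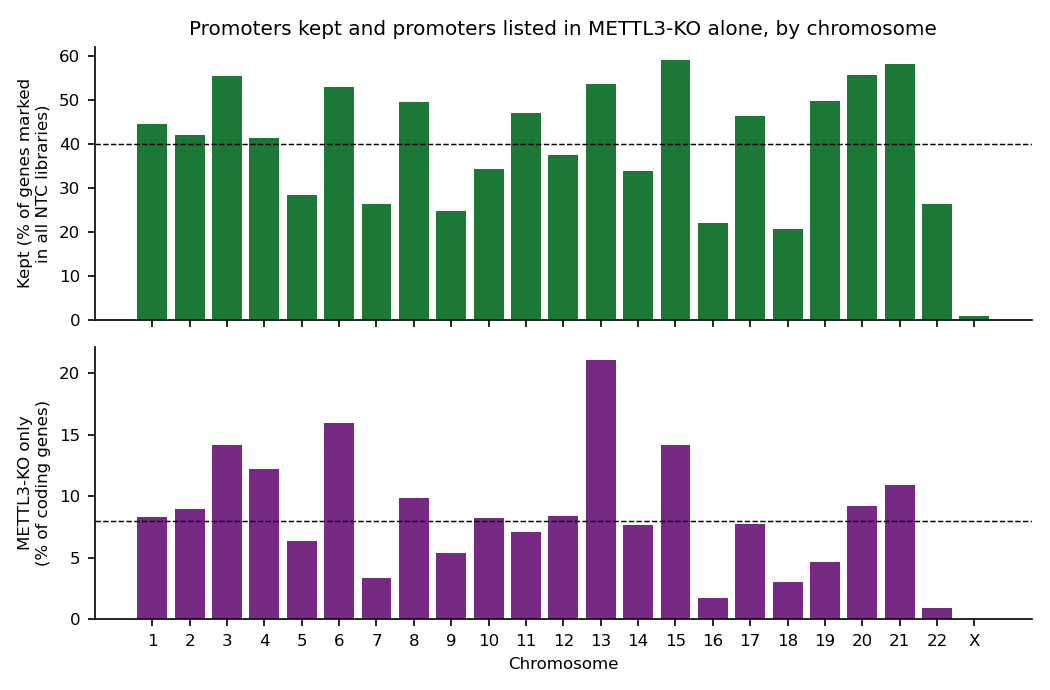
Upper bars give the share kept (%) among genes that every NTC library marked, on each chromosome, and lower bars the share (%) of coding genes marked in METTL3-KO alone, with dashed lines at the values over all chromosomes (39.8% and 7.96%). Chromosome X is at 0.694% and 0.

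Shares also changed within a chromosome. Over 140 autosomal blocks of 10 Mb with at least 20 genes marked in all NTC libraries, the share kept ran from 0% to 78.7% with a median of 38.1%. On chromosome 6 the first 20 Mb held 121, 137 and 137 peaks in NTC and 4 and 4 in METTL3-KO, and 0 of 50 genes were kept. The next 20 Mb, which hold the histone and MHC genes, had 340, 352 and 349 peaks in NTC and 334 and 323 in METTL3-KO, with 82 of 113 genes kept (72.6%). Median NTC promoter signal also differed between these stretches, at 1876 and 11344. Copy number was not measured here, and its part in these differences was not tested.

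Promoter letters differed between kept and lost genes. In the window from 250 bases before to 50 after the canonical start, on either strand, CCGGAA was found in 36.6% of 3375 kept promoters, 25.2% of 3909 lost ones, 36.0% of 1602 marked in METTL3-KO alone and 22.8% of all 19822 coding promoters. Among genes in the upper part of NTC signal the shares were 36.0% of kept and 22.8% of lost promoters. AAGATGG, the YY1 letters, was in 9.57% of kept and 5.91% of lost promoters (6.44% of all), and TGCGCA, the NRF1 core, in 15.8% and 11.8% (10.8% of all). GGGCGG, the GC box, went the other way, at 72.4% of kept and 77.4% of lost promoters (61.5% of all). AGATAA, letters that erythroid factors of the GATA family recognise, was found in 4.50% and 4.76% (7.14% of all), and CACCC, the KLF box, in 62.7% and 65.7% (63.7% of all). CACCC is short and can overlap longer GC-rich motifs. Median GC content around the start was 62.3% in kept and 65.5% in lost promoters, and the observed-to-expected CpG ratio 0.778 and 0.784. A match is a description of letters and not a bound site, and no match says only that these letters are not in this window. Of the promoters printed above, METTL3, SLC25A38, RPS12 and HAUS6 hold CCGGAA, but so does RPL3, which was lost.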

How the data were processed

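H3K4me3 CUT&RUN peak lists of 3 NTC and 2 METTL3-KO HEL libraries were used. According to the methods and the processing notes, the authors aligned reads to hg19 and to yeast (sacCer3, spike-in) with Bowtie, used Picard, and called peaks in each library separately. The deposited column is a signal, a sum of coverage scaled to the spike-in by the authors. Versions were not given in the sources used here. Peak starts were read as counted from 0. Peaks sharing 1 bp were merged, signals summed per region, and genes of the GENCODE hg19 annotation marked by a peak within 1 kb of a start. Features called in at least 2 libraries were tested on log2(signal + 30.4), where 30.4 is the lowest signal of any region. Regions called in all 5 libraries were tested on log2(signal), with no pseudocount. Both fits used limma 3.58.1 (R 4.3.3, Benjamini-Hochberg, threshold 0.05), after tests on simulated data. Counts per library were compared by exact permutation (10 splits). Named genes were the study's own, up to 4 kept and 4 lost of highest NTC signal per list, and the extremes over all genes, and the text gives part of them. A gene that this rule selects is withheld and is not reported here. Members and lists were chosen with earlier results of these data known. Log2 differences of 24 of these genes were recomputed under every alternative. The alternatives were other pseudocounts, filters, scalings, merging and promoter windows, 1 start per gene, a replicate block and leaving out each library. A run on autosomes only was added after seeing the data. Chromosome Y and the mitochondrial genome were left out of chromosome counts.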

Additional observations from a re-analysis of the deposited data

How the results depend on the processing

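Of 76 recomputed values of the main comparisons 15 moved. The other 61 were within the limit set for their kind. That limit was the direction alone for peaks and marked genes per library, 1.5 times for counts of calls, and 1 SD for shares without a test. Among these 61, however, the knockout mean fell to 26.3% of NTC for peaks and 36.2% for marked genes when low peaks were dropped. NTC regions without a METTL3-KO peak (71.4%) came to 85.3% when peaks under the median NTC peak signal were dropped, 66.9% with peaks within 1 kb merged, 93.4% when a knockout peak had to cover 50% of the region, and 71.7% to 77.0% leaving out 1 library. NTC-marked genes without a knockout peak (46.3%) came to 76.7% with that threshold, 49.6% with 1 start per gene, 44.4% on autosomes only (chosen after seeing the data) and 45.4% to 54.3% leaving out 1 library. Regions called different numbered 18689, and 8552 with the threshold. Among regions called in all 5 libraries 3011 were called, 1123 with centred libraries and 1569 with values divided by the step (1566 lower, 3 higher). Leaving out METTL3-KO replicate 1 or 2 left 87 or 2 regions and 45 or 86 promoters called higher, because regions in the knockout alone then fail the filter on 2 libraries. Replicate numbers did not pair the samples (correlation of deviations -0.08, 2 pairs, NTC replicate 3 without a partner), and with the replicate block peaks were 42.4% and marked genes 71.3% of NTC, with 18023 regions, 2970 regions called in all 5 and 8642 promoters called. Of 328 recomputed differences of named genes 302 kept direction and call, 15 lost the call, 1 gained it and 10 reversed. With centred libraries METTL14 came to 0.19, UROS to 1.56 and BCL11A to 1.84. WTAP came to -0.80 with 10 times the pseudocount, -2.95 with the replicate block, -1.77 with 1 start per gene and -2.95 to 1.80 leaving out 1 library. With 1 start per gene UROS came to 0.42 and CREBZF to -3.63. BCL11A accounted for 10 of the 15 lost calls. Of 223 shares of gene groups kept 88 moved. The causes were not tested. Depth is unknown, so a missing peak is not shown to be a missing mark.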
